A study of Rattus norvegicus with 9 samples.

Results

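The genes described here make, break down and sense prostaglandins, and were measured by RNA sequencing of kidney cortex. They are Ptgs2, Ptgs1, Ptges, Ptges2, Ptges3, Hpgd, Ptger3 and Ptger4, taken by name from the table of gene levels. They were chosen by their place in the pathway together with the spread of the Ptgs2 level between these libraries, which was known beforehand, so their levels are given as a description. All 8 of the 8 named genes were among the 18420 genes of the table, and all 8 were among the 13647 genes with a mean level of at least 10. The 9 libraries form 1 group of 9 replicates, diabetic rats of the strain ZDF fa/fa given the treatment labelled Medical Bypass. That strain is obese because its leptin receptor does not work, and it becomes diabetic, so diabetes and the receptor defect are shared by every library. The labels give neither the sex nor the age of the rats nor the agents of the treatment, and no operated, untreated or healthy group was analysed here. The spread between the replicates is therefore what these data can describe. The labels do not say whether each replicate was a separate animal. Every p-value therefore concerns only how levels went together over these libraries, and the differences between them may be technical.

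Prostaglandins are short-lived lipid signals that act close to the cell that makes them. A phospholipase frees arachidonic acid from membranes, a cyclooxygenase (encoded by Ptgs1 or Ptgs2) turns it into prostaglandin H2, and terminal synthases turn that into prostaglandin E2 and its relatives, which act through receptors on the cell surface. In the kidney cortex Ptgs2 is known for its expression in the macula densa and the neighbouring thick ascending limb, cells that sense salt in the tubule, while Ptgs1 is known from collecting ducts and vessels. Prostaglandin E2 also opposes salt and water reabsorption along the tubule, in large part through the receptor that Ptger3 encodes.

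Levels are reads per gene divided by the size factor of the library, with no correction for gene length, so no level of one gene is set against that of another. Reads in genes ran from 10757440 in replicate 3 to 43071223 in replicate 8, and 1 read was worth 0.544 to 1.99 units of level. Reads outside genes made 22.0% to 31.3% of the counted reads and multiply aligned reads, those with more than 1 place in the genome, 14.9% to 22.1%. Markers of kidney cell types were read in every library. The proximal tubule markers Slc34a1 (52253 to 107425) and Slc22a6 (19065 to 46383), the thick ascending limb marker Slc12a1 (9469 to 21695) and the podocyte marker Nphs1 (1712 to 2697) were far above 0 throughout. In bulk tissue, fewer cells of a type and less RNA per cell cannot be told apart, and this holds for each level below.

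Ptgs2, the inducible cyclooxygenase, had the widest range of the 8 genes. Its level was 799 in replicate 1, 1187 in replicate 2, 1071 in replicate 3, 762 in replicate 4, 147 in replicate 5, 459 in replicate 6, 111 in replicate 7, 219 in replicate 8 and 256 in replicate 9. Replicates 1 to 4 were high, replicate 6 lay between, and replicates 5, 7, 8 and 9 were low. The mean was 556.9 ± 409.7 (SD, n = 9), the fold range between the highest and the lowest replicate was 10.7, and the reads behind these levels ran from 111 to 1528 per library. Replicates next to each other in level could not always be told apart: the 95% exact Poisson intervals, which cover counting error only, overlapped for replicates 2 and 3, for replicates 1 and 4, for replicates 9 and 8 and for replicates 5 and 7, and were separate at the other steps.

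The SD of Ptgs2 on the log2 scale was 1.27, against a median of 0.30 for the 200 genes nearest to it in mean level and 0.08 from counting error alone. It lay above all 200 of those genes. Over all genes tested the median fold range was 2.01, and 120 of 13647 genes (0.879%) had a fold range at least as large as that of Ptgs2. Since the gene was picked with its spread known, no test is attached to these figures.

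**Figure D1:**
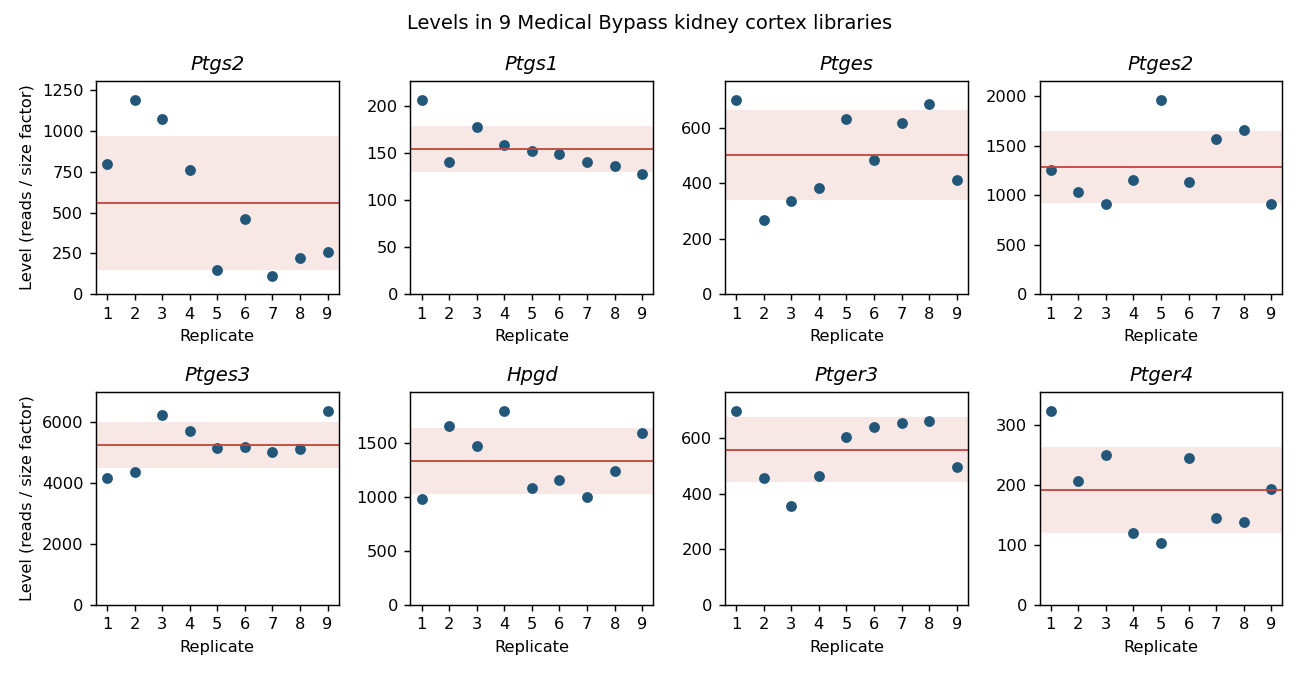
Level of each prostaglandin gene (reads divided by the size factor) in each of the 9 Medical Bypass replicates, 1 panel a gene with its own axis from 0. Points are libraries, the line is the mean and the band is 1 SD either side; the Ptgs2 points run from 111 to 1187, while those of Ptgs1 stay between 128 and 206.

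The region around the start of each cyclooxygenase gene is shown because the pair differs widely in spread. The sequences are 300 bases each, 250 before and 50 after the annotated start, from RefSeq on the build GRCr8. Capitals mark the motifs found, on either strand: the E-box CACGTG, the D-box TTATGNAA and the GC box GGGCGG.
Ptgs2, chr13:64713813-64714112, plus strand: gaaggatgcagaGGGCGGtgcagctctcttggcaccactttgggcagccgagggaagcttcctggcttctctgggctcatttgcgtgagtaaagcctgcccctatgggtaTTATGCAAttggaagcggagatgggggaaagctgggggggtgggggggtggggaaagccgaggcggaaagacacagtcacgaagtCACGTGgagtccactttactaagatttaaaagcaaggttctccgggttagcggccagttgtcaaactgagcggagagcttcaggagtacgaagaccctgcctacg
Ptgs1, chr3:39981169-39981468, plus strand: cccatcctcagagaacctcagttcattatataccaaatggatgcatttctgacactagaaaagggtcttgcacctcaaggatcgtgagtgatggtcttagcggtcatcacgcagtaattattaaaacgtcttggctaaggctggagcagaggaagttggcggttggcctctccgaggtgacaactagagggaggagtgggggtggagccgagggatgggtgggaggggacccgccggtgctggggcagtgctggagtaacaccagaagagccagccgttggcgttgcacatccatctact

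In the Ptgs2 window the E-box began at base -55 from the start and a GC box at base -238. A match to the D-box pattern TTATGNAA, in which N is any base, began at base -140 and read TTATGCAA. Among 33469 RefSeq promoters of the same length, 6.418% held the E-box, 3.663% the D-box and 33.06% the GC box. The Ptgs1 window held none of these letters. The ROR element AGGTCA, the cAMP response element TGACGTCA and the TATA box TATAAA, which 16.18%, 1.829% and 14.22% of promoters held, were found in none of the 7 windows searched, that of Ptgs2 included. Of the other genes with an entry, Ptges held a match to the D-box pattern at base -32 and a GC box at base -87. Hpgd held an E-box at base 23 and a GC box at base -99. Ptges3 held 5 GC boxes, Ptger3 held 3, and in the Ptger4 window none of the 6 motifs was found. A match is a run of letters, not a shown binding site, and 7 of the 8 genes had an entry.

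Ptgs1, the constitutive cyclooxygenase, varied little. Its level ran from 128 in replicate 9 through a median of 149 to 206 in replicate 1, with a mean of 154.1 ± 24.1 (SD, n = 9) and a fold range of 1.61. Replicate 1 was highest and the other 8 libraries lay between 128 and 177, though the exact Poisson intervals of replicates 1 and 3 overlapped. Only 11.5% of the 200 genes of like level had a smaller SD on the log2 scale, and its SD was 0.21, where counting error alone gives 0.11.

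The terminal synthases of prostaglandin E2 each had a pattern of their own. Ptges, the microsomal synthase known for its coupling to Ptgs2, ran from 266 in replicate 2 through a median of 485 to 699 in replicate 1 (501.8 ± 161.8, SD, n = 9). It was high in replicates 1, 5, 7 and 8, where it lay between 619 and 699, and low in replicates 2, 3, 4 and 9, where it lay between 266 and 411. Ptges2, a second membrane-associated synthase, ran from 906 in replicate 9 through a median of 1155 to 1957 in replicate 5 (1286 ± 363.9, SD, n = 9), with replicates 5, 7 and 8 above all others. Ptges3, which encodes the Hsp90 cochaperone p23 and has also been described as a cytosolic synthase, was the steadiest of the 8 by fold range, at 1.53. Its level ran from 4145 in replicate 1 through a median of 5123 to 6343 in replicate 9 (5235 ± 748.4, SD, n = 9). Its spread on the log2 scale lay above 27% of 200 genes of like level, where that of Ptgs1 lay above 11.5%. The fold range of Ptges was 2.62 and that of Ptges2 was 2.16, which put their spread on the log2 scale above 76% and 80.5% of 200 genes of like level.

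Hpgd encodes the dehydrogenase that starts the breakdown of prostaglandin E2. It ran from 980 in replicate 1 through a median of 1239 to 1791 in replicate 4 (1329 ± 303.6, SD, n = 9), a fold range of 1.83. Replicates 2, 3, 4 and 9, the 4 libraries lowest in Ptges, were the 4 highest in Hpgd.

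Of the receptors, Ptger3 encodes EP3, which lowers cAMP, and Ptger4 encodes EP4, which raises it. Ptger3 ran from 356 in replicate 3 through a median of 606 to 698 in replicate 1 (559.4 ± 118.3, SD, n = 9), a fold range of 1.96. Ptger4 ran from 103 in replicate 5 through a median of 194 to 324 in replicate 1 (192.0 ± 72.7, SD, n = 9). Its fold range of 3.14 was the second widest of the 8 genes, and its spread lay above 81.5% of 200 genes of like level. Both receptors were highest in replicate 1, and they differed in where they were low: Ptger3 in replicates 2, 3, 4 and 9, and Ptger4 in replicates 4, 5, 7 and 8.

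**Figure D2:**
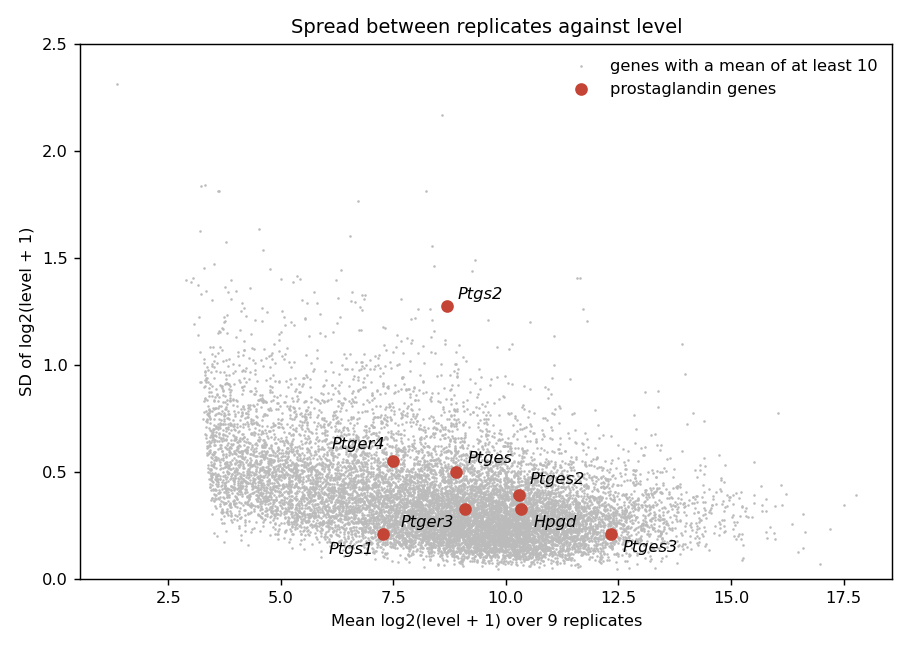
SD of the log2 level over 9 replicates against the mean log2 level, 1 grey point for each gene with a mean of at least 10 and red points for the prostaglandin genes. Ptgs2, at 1.27, stands above the cloud at its level, while Ptgs1 and Ptges3, both at 0.21, lie in its lower part.

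Whether the other 7 genes went with Ptgs2 was asked over the 9 libraries, with limma slopes of each gene's log2 level on that of Ptgs2 and with Pearson's r. None of the 7 passed the 5% threshold after Benjamini-Hochberg adjustment over 13646 genes, and neither did any other gene: limma called 0 of 13646 (0%), and the lowest adjusted p was 0.243. At an unadjusted limma p under 0.05, 2593 genes (19%) had a slope, 1180 of them positive (8.65%) and 1413 negative (10.4%). Among the 7 genes, 1 positive slope (Ptger4) and 2 negative slopes (Ptges and Ptges2) were under that level. edgeR's quasi-likelihood test on the recovered reads also called 0 genes, with 2494 (18.3%) under an unadjusted p of 0.05, while DESeq2 called 221 (1.62%), 69 positive (0.506%) and 152 negative (1.11%). None of the 7 genes was among those 221, and their lowest DESeq2 adjusted p was 0.106.

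Of the terminal synthases, Ptges2 and Ptges had a negative r with Ptgs2. The r of Ptges2 with Ptgs2 was -0.70 (exact permutation p = 0.0411, two-sided) and Spearman's rho was -0.62 (exact p = 0.0857). Ptges gave an r of -0.66 (exact p = 0.0559) and a rho of -0.57 (exact p = 0.121). Neither is set apart from other genes, since 6.18% of all genes had a lower r with Ptgs2 than Ptges2 had, and 8.84% a lower one than Ptges. Without the 2 replicates farthest from the median of Ptgs2 the r of Ptges2 was -0.42 and that of Ptges was -0.56. Both genes also moved with the make-up of the libraries. The r of Ptges2 with the share of reads outside genes was -0.87 (exact p = 0.000639) and with the share of multiply aligned reads 0.80 (exact p = 0.00769), and Ptgs2 itself had an r of 0.65 with the share outside genes (exact p = 0.0339). Ptges had an r of 0.71 with the share of multiply aligned reads (exact p = 0.0284). These come from 24 unadjusted relations between 3 library measures and the 8 genes, of which that of Ptger4 with the share outside genes also had an exact p under 0.05. With the share outside genes as a covariate, the r of Ptges2 with Ptgs2 was -0.37. The part of library make-up in these relations was not tested beyond that.

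The other cyclooxygenase, the receptors and the degrading enzyme gave no slope on Ptgs2 past the threshold either. Ptger4 gave an r of 0.60 (exact p = 0.0903) and a rho of 0.63 (exact p = 0.0760), and 10.8% of genes had a higher r. Its r with the share of reads outside genes was 0.77 (exact p = 0.00591), and with that share as a covariate its r with Ptgs2 was 0.20. Hpgd gave 0.52 (exact p = 0.151), and 0.18 without the 2 replicates farthest from the median of Ptgs2. Ptgs1 gave 0.51 (exact p = 0.162), Ptger3 -0.58 (exact p = 0.0980; -0.34 with equal totals for all libraries) and Ptges3 -0.13 (exact p = 0.733). The limma adjusted p of these genes ran up to 0.855, that of Ptges3, whose r was 0.20 when every library was scaled to the same total.

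Among the other pairs, Ptges and Ptger3 went together across the replicates and Hpgd went the opposite way. Their shared order is visible in the levels above, with replicates 2, 3, 4 and 9 low in both and high in Hpgd. Ptges and Ptger3 had an r of 0.87 (exact p = 0.00322) and a rho of 0.93 (exact p = 0.00075), an r of 0.90 without the 2 replicates farthest from the median of Ptges, and 0.88 within replicates 4 to 9. Ptges and Hpgd had an r of -0.84 (exact p = 0.00818) and a rho of -0.80 (exact p = 0.0138), and Hpgd and Ptger3 an r of -0.79 (exact p = 0.0138) and a rho of -0.77 (exact p = 0.0214). Of 28 pairs, 9 had a positive and 19 a negative r, and 6 had an exact p under 0.05, not adjusted over pairs because the genes were chosen with earlier results known. The share of all gene pairs under that level was not computed, so the count of 6 is not read as a result about these genes. By another test, limma slopes on Ptgs2, 19% of all genes had an unadjusted p under 0.05. Set against all genes, 2.04% had a higher r with Ptges than Ptger3 had, and 2.20% had a lower r with Ptges than Hpgd had.

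The remaining pairs under that level involve Ptges2. Ptges and Ptges2 had an r of 0.77 (exact p = 0.0185) and a rho of 0.73 (exact p = 0.0311), and 9.00% of genes had a higher r with Ptges. The r of Ptges with the share of multiply aligned reads was 0.71, and with that share as a covariate the r between Ptges and Ptges2 was 0.48. Ptges2 and Ptger3 had an r of 0.69 (exact p = 0.0423) and a rho of 0.63 (exact p = 0.0760), and 23.4% of genes had a higher r with Ptges2. Its exact permutation p was above 0.05 without replicate 2, 3, 4, 7, 8 or 9, when r was 0.60 to 0.70.

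**Figure D3:**
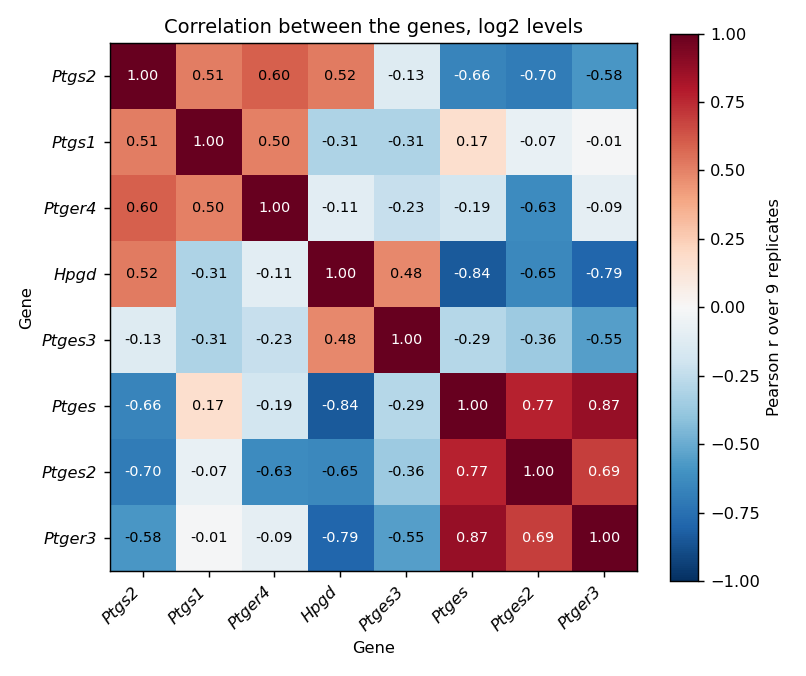
Pearson's r between the log2 levels of each pair of prostaglandin genes over 9 replicates, from blue (-1) to red (1), with the value in each cell. Ptges, Ptges2 and Ptger3 form a red block (0.69 to 0.87) that is blue against Hpgd (-0.65 to -0.84) and against Ptgs2 (-0.58 to -0.70).

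The rest of the pathway was read from lists of named genes. Of the phospholipases that free arachidonic acid, 7 had a mean of at least 10, and their median r with Ptgs2 was -0.33, against -0.0092 over all genes tested. The cytosolic phospholipase Pla2g4a, the form best known for supplying the cyclooxygenases, had the highest r, 0.69 (exact p = 0.0411; rho 0.62, exact p = 0.0857), and was the only one of the 7 with an unadjusted limma p under 0.05, a positive slope, as 8.65% of all genes had. Its level ran from 187 in replicate 7, the library lowest in Ptgs2, through a mean of 274.9 ± 55.6 (SD, n = 9) to 368 in replicate 1. Without the 2 replicates farthest from the median of Ptgs2 its r was 0.39. The other 6 lay between -0.56 and 0.41.

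The other prostanoid synthases that could be tested all had a negative r with Ptgs2, 3 of 3 under each scaling. Fam213b, an oxidoreductase described as a prostaglandin F synthase, had 1244, 931, 1294, 1177, 2919, 1362, 2354, 2644 and 1287 in replicates 1 to 9. Replicates 5, 7 and 8, which are the 3 libraries lowest in Ptgs2, were the 3 highest and stood apart from the rest. Its r was -0.86 (exact p = 0.00218) and its rho -0.80 (exact p = 0.0138), with -0.75 without the 2 farthest replicates and -0.81 within replicates 4 to 9, and its limma adjusted p was 0.243. DESeq2 called it, with an adjusted p of 0.0032. Ptgds, the prostaglandin D synthase of the lipocalin family, had an r of -0.70 (exact p = 0.0397), but -0.36 within replicates 4 to 9 and -0.39 with the share of reads outside genes as a covariate, with 1743 in replicate 5 and 612 in replicate 1. Tbxas1, the thromboxane synthase, had an r of -0.52 (exact p = 0.144; -0.15 with that covariate), and Hpgds, the other prostaglandin D synthase, had a mean of 1.13 and was left untested.

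Among the remaining prostanoid receptors, 4 had a mean of at least 10 and 1 had an unadjusted limma p under 0.05, with a positive slope as 8.65% of all genes had. That receptor was Ptgfr, which binds prostaglandin F, with an r of 0.59 (exact p = 0.0955) and levels from 28.5 in replicate 5 to 110.3 in replicate 2. Ptgir, Ptger1 and Tbxa2r had an r of 0.32, 0.27 and -0.41. Ptger2 averaged 4.50 ± 2.15 and Ptgdr2 0.181 ± 0.544 (SD, n = 9), and Ptgdr2 was listed at 0 in every library but replicate 8. Of the 5 genes of prostaglandin transport and breakdown besides Hpgd none had an unadjusted limma p under 0.05. Their r ran from -0.48 for Zadh2 to 0.49 for Abcc4, the exporter of prostaglandin E2, with the uptake carrier Slco2a1 at 0.30. The 6 leukotriene and lipoxygenase genes, the parallel branch of arachidonic acid use, all had a negative r, from -0.63 for Alox5ap to -0.11 for Alox5, though Alox5 and Lta4h turned positive with equal totals for all libraries, and none had an unadjusted limma p under 0.05.

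Genes that mark the cells known to carry Ptgs2 in the cortex were described next. Slc12a1, the sodium, potassium and chloride cotransporter of the macula densa and thick ascending limb, had 20016, 21695, 19112, 18543, 10484, 14994, 11095, 9469 and 15562 in replicates 1 to 9. Replicates 1 to 4 were the 4 highest in both genes and replicates 5, 7 and 8 the 3 lowest in both. The r with Ptgs2 was 0.91 (exact p = 0.00133) and the rho 0.90 (exact p = 0.00203). Slc12a1 had the largest absolute r of the 3 tested thick ascending limb markers, so the p-values given for it are those of a picked extreme. The r was 0.88 without the 2 replicates farthest from the median of Ptgs2, 0.82 within replicates 4 to 9 and 0.84 with the share of reads outside genes as a covariate. The limma adjusted p was 0.243, and the DESeq2 adjusted p was 0.00191. The other thick ascending limb markers gave lower values. Umod, which encodes the most abundant protein of normal urine, had an r of 0.21 and Cldn10, a claudin of its tight junctions, one of -0.40.

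Pappa2, a protease found in macula densa cells, had an r of 0.76 (exact p = 0.0212; rho 0.75, exact p = 0.0255) and levels from 26.4 in replicate 5 to 141.3 in replicate 3. It was low in replicates 5, 7 and 8, between 26.4 and 49.9, and at 86.3 or more in the other 6. Its r was 0.59 without the 2 farthest replicates, 0.63 within replicates 4 to 9 and 0.53 with the share of reads outside genes as a covariate. Nos1, the neuronal nitric oxide synthase of the macula densa, had an r of 0.35 (exact p = 0.339) and low levels, from 8.98 to 41.7. Gja5, a connexin of the juxtaglomerular cells, had an r of 0.50, and over the 5 tested genes of the macula densa and juxtaglomerular list the median r was 0.38, with 1 of 5 (a positive slope) under an unadjusted limma p of 0.05, beside 8.65% of all genes. With the share of reads outside genes as a covariate the r of Gja5 was 0.044, and without the 2 farthest replicates it was 0.081.

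**Figure D4:**
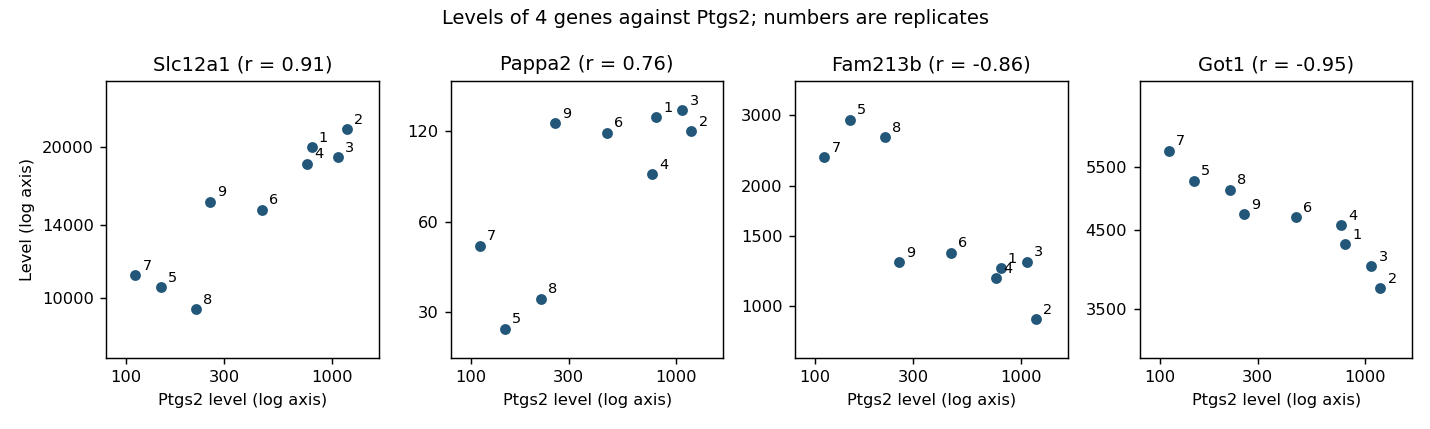
Levels of Slc12a1, Pappa2, Fam213b and Got1 against the level of Ptgs2, both on log axes, 1 point for each of the 9 replicates with its number. Slc12a1 goes up with Ptgs2 (r = 0.91) and Got1 goes down (r = -0.95), while for Fam213b (r = -0.86) replicates 5, 7 and 8 stand apart from the other 6.

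Among all genes with a symbol, those whose pattern over the 9 libraries was most like that of Ptgs2 were Fkbp9, Dstyk, Inip, Rps6ka5 and Usp11, with an r of 0.94, 0.93, 0.93, 0.93 and 0.92. Fkbp9 encodes a prolyl isomerase of the endoplasmic reticulum, Dstyk and Rps6ka5 encode kinases, Inip a subunit of a DNA repair complex and Usp11 a deubiquitinase. Rps6ka5 ran from 109.8 in replicate 5 to 292.9 in replicate 2, the library highest in Ptgs2. The lowest r values were -0.97 for Timm8a1, -0.95 for Got1, -0.94 for Chchd4, and -0.92 for both Ubac1 and Naa20. Timm8a1 and Chchd4 serve protein import into mitochondria and Got1 is the cytosolic aspartate aminotransferase. The libraries stood in exactly the reverse order for Got1 and Ptgs2, a rho of -1, with 5798 in replicate 7 and 3740 in replicate 2. These 10 genes were picked as the extremes of 13646 values of r. A slope test on Ptgs2 in the same libraries is largely fixed by that choice, so the p-values here only describe the tools. All 10 had a limma adjusted p between 0.243 and 0.308. DESeq2, which called 221 of all 13646 genes (1.62%), called 8 of the 10, all but Inip and Chchd4. Its adjusted p was 0.00177 for Rps6ka5, 0.00421 for Timm8a1 and 0.0218 for Got1.

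By the same measure the 2 genes nearest to each other prostaglandin gene differed from gene to gene. Ptges3 was nearest to Hsp90b1 (r = 0.97) and Hsph1 (r = 0.96), both chaperones, as Ptges3 is itself. Ptges2 was nearest to Metrn (r = 0.99), a secreted neurotrophic factor, and Mrps34 (r = 0.99), a mitochondrial ribosomal protein, and Ptges to Meaf6 (r = 0.98), a subunit of histone acetyltransferase complexes, and Tmsb4x (r = 0.97), which binds actin monomers. Ptger3 was nearest to Nfkbie (r = 0.98), an inhibitor of NF-kB, and Ralgds (r = 0.98), an exchange factor for Ral proteins. Hpgd was nearest to Pnrc2 (r = 0.96) and Ube2e1 (r = 0.95), Ptger4 to Capn6 (r = 0.96) and Nt5c1a (r = 0.96), and Ptgs1 to Hpcal4 (r = 0.94) and Tecta (r = 0.93). Hpcal4, Tecta, Capn6 and Nt5c1a, like Ptgs1 and Ptger4, were highest in replicate 1.

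Marker and response lists were then set beside Ptgs2, each by its counts at an unadjusted limma p under 0.05, to be read against 8.65% of all genes with a positive and 10.4% with a negative slope. In these lists exact p-values are printed for genes with the largest absolute r of their list, so they are p-values of picked extremes. Of 4 proximal tubule markers none was positive and 3 were negative. The organic anion transporter Slc22a6 had an r of -0.85 (exact p = 0.00567; rho -0.78, exact p = 0.0172) and the glucose transporter Slc5a2 one of -0.66 (exact p = 0.0530; -0.39 with the share of reads outside genes as a covariate), and the summed level of the 4 ran from 96159 in replicate 1 to 186122 in replicate 8. Of 4 podocyte markers none was positive and none negative, and Nphs1 had an r of 0.48 (exact p = 0.195), and 0.092 without the 2 farthest replicates. The 5 macrophage markers gave no slope under that level in either direction, and their r was split, 2 above 0 and 3 below. They ran from -0.61 for the complement component C1qb (exact p = 0.0846; -0.12 with the share of reads outside genes as a covariate) to 0.51 for Adgre1, and their summed level ran from 1288 in replicate 3 to 2048 in replicate 5. None of the 3 collecting duct or the 2 tested medullary markers was under that level. The part of these cell types in the Ptgs2 levels was not tested.

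The immediate early, NF-kB and cytokine, glucocorticoid response and Hsp90 lists gave no positive slope under that level. Of 12 immediate early genes, which signals switch on within minutes, none had an unadjusted limma p under 0.05, and the median r was -0.15. Of 8 NF-kB and cytokine genes none was positive and 3 were negative, with a median r of -0.66. The adhesion molecule Icam1 had an r of -0.81 (exact p = 0.0068; rho -0.88, exact p = 0.00308) and the chemokine Cxcl1 one of -0.76 (exact p = 0.0128; rho -0.72, exact p = 0.0369). Icam1 was not among the 3 negative slopes, as its unadjusted limma p was 0.126. It spanned only 1.31-fold, from 601 in replicate 1 to 787 in replicate 7, and its r was -0.49 with equal totals for all libraries. The 4 glucocorticoid response genes gave no slope under that level. Of 8 Hsp90 and cochaperone genes none was positive and 3 were negative. The cochaperone Fkbp4 had an r of -0.88 (exact p = 0.00189; rho -0.93, exact p = 0.00075) and Ahsa1 one of -0.71 (exact p = 0.0337; -0.44 within replicates 4 to 9). Fkbp4 had 10591 in replicate 5 and 3932 in replicate 2.

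The circadian clock list had 6 positive and 2 negative slopes under that level among 13 genes, and a median r of 0.46. Nr1d2, a repressor of the clock, had an r of 0.79 (exact p = 0.0125; rho 0.78, exact p = 0.0172) and Per3 one of 0.75 (exact p = 0.0264; rho 0.78, exact p = 0.0172). Of the 13 clock genes, 6 had replicates 1 to 3 all above the other 6, 2 had them all below, and 5 (Per2, Cry2, Clock, Npas2 and Hlf) overlapped. Nr1d1, the sister repressor of Nr1d2, lay between 1309 and 1346 in replicates 1 to 3 and between 110.1 and 242.6 in replicates 4 to 9. Ptgs2 was the 1 gene of the 8 with replicates 1 to 3 (799 to 1187) all above replicates 4 to 9 (111 to 762), an order shared by 164 of 13647 genes (1.2%), and none of the 8 was all below, as 264 genes (1.93%) were. The gap between 799 and 762 was within counting error, and Ptgs2 still ranged 6.88-fold within replicates 4 to 9. In those 6 libraries alone the r of Ptgs2 was 0.46 with Nr1d2 and 0.29 with Per3. Replicate 4, the library lowest in Nr1d1 (110.1), had a Ptgs2 level of 762. The labels give no time of day, so the clock phase of each library is not known. Its part in the Ptgs2 levels was not tested.

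**Figure D5:**
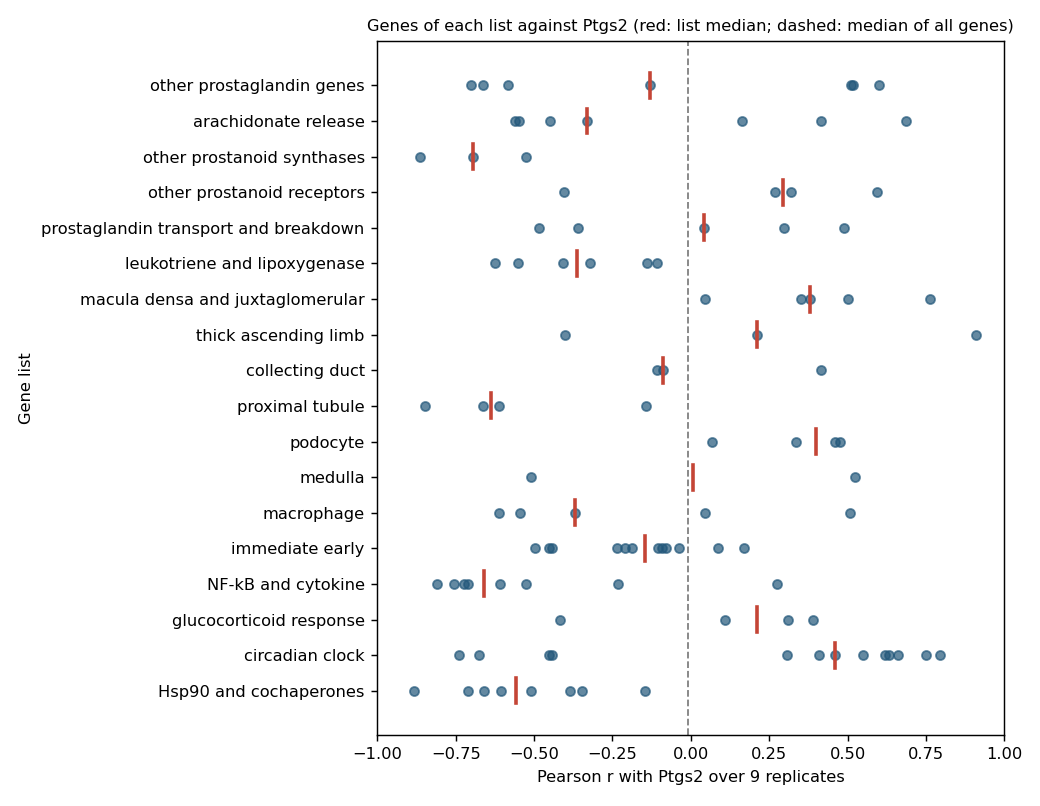
Pearson's r with Ptgs2 over 9 replicates for the genes of each list, 1 point a gene, with the list median in red and the median of all genes tested (-0.0092) as a dashed line. The clock list spreads to both ends with a median of 0.46, while the 8 Hsp90 genes and the 4 proximal tubule markers all lie below 0, apart from 1 of each (Hspa8 and Cubn) when every library was scaled to the same total.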

How the data were processed

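Messenger RNA of kidney cortex was sequenced from stranded libraries, per the labels' protocols. The tools listed in the submitters' processing notes are HTSeq 0.6.1p1, DESeq2, FastQC 0.11.2 and MultiQC 0.9, with the build Rnor_5.0; which aligner was used is not given in the sources used here. What the authors deposited is a signal, the count of each gene divided by a size factor per library. Whole reads were recovered from it, with 100% of values above 0 within 0.1 read of a whole number. The 3 rows that name no gene stayed out of totals and tests and served only to describe the libraries.

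Levels were analysed as log2(level + 1) where the mean was at least 10, which left 13647 genes. Slopes on Ptgs2 were fitted with limma 3.58.1 (robust trend) in R 4.3.3, with Benjamini-Hochberg adjustment over 13646 genes at a threshold of 0.05, and with edgeR 4.0.16 and DESeq2 1.42.0 on the recovered reads. DESeq2 gave no adjusted p for 1323 genes. Each p of a correlation is two-sided and from an exact permutation test that enumerates every pairing. The scripts were tested on simulated data. Alternatives covered pseudocounts of 0.5 and 5, filters on low levels, TMM scaling, equal totals, each replicate left out, replicates 4 to 9, and covariates. The share of reads outside genes as a covariate, and the alternatives for pairs that leave Ptgs2 out, were chosen after seeing the data.

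The 8 genes, the 17 further lists (102 of 119 genes matched in the table) and the tests were chosen with earlier results of these data known. Named genes are the 8, their pathway lists, Nos1 and Pappa2, the 5 highest and 5 lowest in r with Ptgs2, the 2 nearest to each other member, and in each further list the 2 with the largest absolute r. Some of these are given only within a range, 2 genes were left out of the lists because they are not reported here, and Umod, Nr1d1, Slc34a1 and Ppard were named outside the rule.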

Additional observations from a re-analysis of the deposited data

Results flagged for a closer look

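In 60 genes examined for a library far from the other 8, 4 stood out by the gap to the next library relative to the whole range (above Dixon's 95% critical value for 9 samples), which is 6.67% where chance gives about 1 in 20. Replicate 1 accounted for 3 of the 4. Among prostanoid receptors, Ptger1 had 439 in replicate 1 against 238 in the next library, and Ptgir had 41.7 in replicate 6 against 31.8. Hpcal4 had 213.9 against 139.3 and Tecta 51.4 against 41.8, both in replicate 1. They were picked as the genes nearest in pattern to Ptgs1, which was itself highest in replicate 1. Their flags were partly fixed by that choice, so the count for replicate 1 is not read as a result. None of the 8 prostaglandin genes was set apart in this way, although 4 of them (Ptgs1, Ptges, Ptger3 and Ptger4) were highest in replicate 1.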

How the results depend on the processing

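The number of genes whose level followed Ptgs2 was 0 in limma under every pseudocount, filter, scaling and covariate tried, 0 to 1 when each replicate was left out in turn (Ppard without replicate 7 and 1 gene without a symbol without replicate 3), and 221 with DESeq2, the cause of which was not tested. Within replicates 4 to 9 alone, which are fewer samples, the fold range was 1.24 for Ptgs1, 1.79 for Ptges, 1.27 for Ptges3 and 1.42 for Ptger3; leaving out each replicate gave 1.39 to 1.61 for Ptgs1 and 1.53 to 1.96 for Ptger3. The r of Ptges3 with Ptgs2 changed sign, to 0.20 with equal totals, 0.41 within replicates 4 to 9 and -0.40 to 0.10 with each replicate left out. That of Alox5 was 0.072 with equal totals, 0.34 and 0.37 with the shares of reads aligned to more than 1 place and outside genes as covariates, and -0.32 to 0.22 with each replicate left out. With the share outside genes it was -0.00046 for Ptgfr, -0.057 for Nos1, 0.093 for Cldn10, -0.0058 for Abcc4 and 0.13 for Zadh2, and within replicates 4 to 9 it was -0.14 for Ptger1. The causes were not tested. Leaving out each replicate gave 0.89 to 0.96 for Slc12a1, -0.90 to -0.61 for Ptges2 and 0.84 to 0.92 for Ptges with Ptger3. Of 45 correlations with Ptgs2, 17 were over 1.5 times smaller or of the other sign with the share of reads outside genes as a covariate, 10 within replicates 4 to 9, 8 with the share of multiply aligned reads and 6 with equal totals. Equal totals moved the median of all genes by -0.12 to 0.18 on the log2 scale. No paired analysis was possible because the labels give 1 group. Depth limits Ptgs1, Ptgs2 and Ptger4 most, with as few as 89, 111 and 126 reads in a library.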
